A study of Mus musculus with 8 samples.

Results

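The genes described here encode the machinery that carries newly made secretory and membrane proteins into the endoplasmic reticulum (ER) and between the ER and the Golgi. The set has 45 members, chosen by name for their place in 8 complexes or groups by a rule that uses no measured value, although with earlier results of these data known, out of 55471 genes in the count table. Each of the 45 symbols had a single row. They were compared between untreated and TGFβ1-treated SV-LECs, a mouse lymphatic endothelial line.

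In the secretory pathway, a nascent protein enters the ER through the Sec61 channel, where signal peptidase removes its signal peptide and the translocon-associated protein (TRAP) complex assists the passage of many substrates. Cargo leaves the ER at exit sites in vesicles coated with COPII, whose assembly is started by the GTPase Sar1 and continued by the Sec23 and Sec24 inner coat and the Sec13 and Sec31 outer coat. The COPI coatomer, recruited by ARF GTPases, carries escaped ER residents and cargo receptors back from the Golgi. Endothelial cells use this route for matrix proteins, cytokines and their surface receptors.

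SV-LECs were isolated from mesenteric adventitial tissue and immortalized with SV40, which both groups share. Cells received either no treatment or 10 ng/ml TGFβ1 for 72 h, with 4 libraries in each group and 8 in all. The study's methods call the 4 samples of a group technical replicates of this single line, so errors and p-values cover technical variation and not that between independent cultures. The comparison asked how the cytokine changed the transcriptome of lymphatic endothelial cells.

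Library totals ranged from 18952504 to 26386941 counts, at which 3 counts equal 0.113 to 0.162 CPM, the count scaled by normalized library size. The line carried only part of the lymphatic endothelial profile. The endothelial genes Pecam1, Cdh5, Tie1, Emcn, Cldn5 and Erg and the lymphatic genes Prox1, Lyve1, Ccl21a and Reln had at most 5 counts in any library. Tek had 8 to 18 counts and was not called as changed, whereas Kdr, Flt4 and Pdpn were detected in all libraries and changed. Their log2 fold changes were 0.93 for Kdr, 0.44 for Flt4 and -0.13 for Pdpn. Pdgfra, Pdgfrb, Col1a1 and Dcn from the list of fibroblast and mural genes were also detected, and 2 of the 4 rose and 2 fell. Col1a1 was 3459 ± 611 CPM in untreated and 6057 ± 530 CPM in treated libraries (SD, n = 4) and Pdgfrb 44.7 ± 1.51 and 69.3 ± 2.27 CPM. Pdgfra was 160 ± 10.5 and 57.8 ± 3.91 CPM, and Dcn 312 ± 11.7 and 83.0 ± 6.48 CPM. Of the marker lists, 2 of 8 endothelial, 2 of 6 lymphatic, 4 of 6 fibroblast and mural, 2 of 5 epithelial and 1 of 5 leukocyte genes were high enough to be tested. Krt8 and Krt18 had at most 47 counts and rose from a low level, with log2 fold changes of 1.99 ± 0.35 and 2.47 ± 0.40 (SE). Cd68, which is not limited to leukocytes, went from 6.96 ± 0.86 to 15.9 ± 0.86 CPM (SD, n = 4), while Ptprc, the pan-leukocyte gene, had at most 1 count. The part of such differences in the values below was not tested. In RNA from bulk samples, fewer cells of a type and less RNA per cell cannot be told apart.

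Most of the secretory transport genes were higher after TGFβ1. All 45 passed the filter on low counts, and 32 were higher and 5 lower at a false discovery rate (FDR) under 0.05 in edgeR's likelihood ratio test, while 8 did not pass. Over all 13818 genes tested, 75.6% passed in either direction, 37.6% as higher and 38.0% as lower, so the share of members that passed at all was close to that of the table and the members differed from it mainly in the direction of their calls. The median log2 fold change of the members was 0.32, against -0.01 for all genes tested, where the interquartile range ran from -0.36 to 0.42. Among the 8117 genes with a mean of at least 20 CPM, 81.2% passed, 38.3% as higher and 42.8% as lower. The changes were small, from -0.80 to 1.04 on the log2 scale, and 12 members both passed and exceeded a log2 fold change of 0.5, which 21.5% of all genes did. All 4 treated libraries lay above all 4 untreated ones for 33 members (34.7% of all genes) and below them for 5 members (35.1% of all genes).

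**Figure D1:**
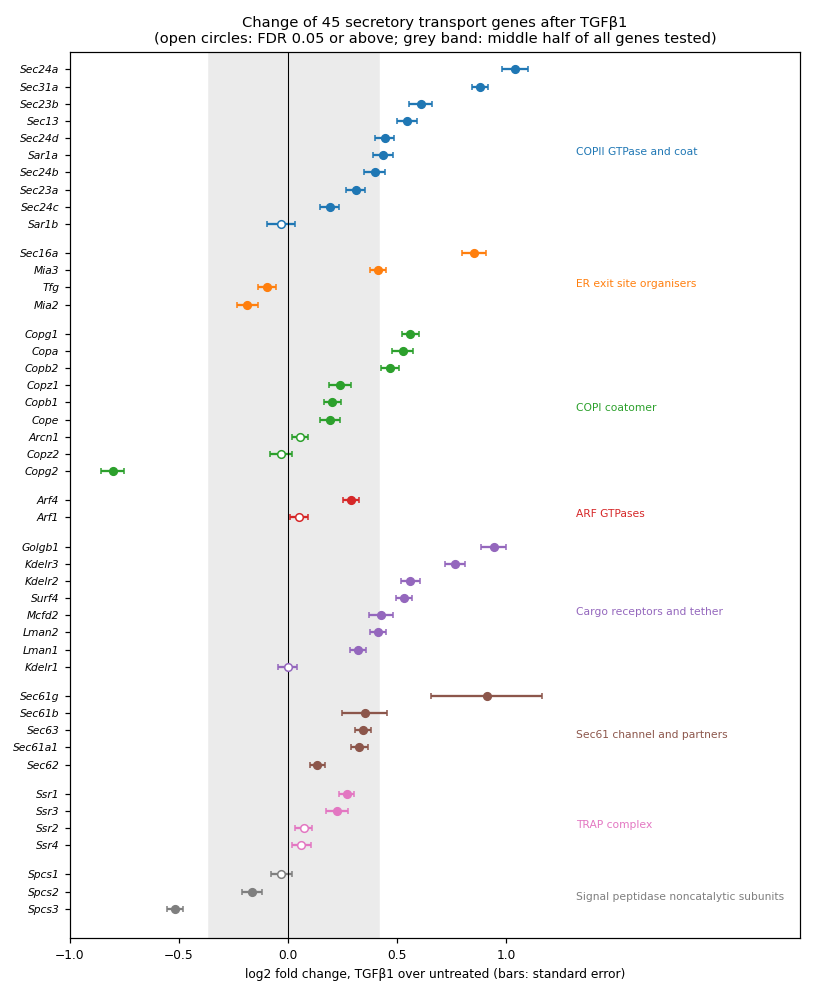
Log2 fold change of each of the 45 genes after TGFβ1 (horizontal axis, bars give the standard error), grouped by complex on the vertical axis. Filled circles passed an FDR under 0.05 and open circles did not, and the grey band spans the interquartile range of all genes tested, from -0.36 to 0.42. Sec24a at 1.04 and Copg2 at -0.80 mark the ends of the range, and the 3 signal peptidase subunits lie at or below 0.

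The median change differed by complex, although the ranges of the COPII genes (-0.03 to 1.04) and of the coatomer genes (-0.80 to 0.56) overlapped. No test compared the complexes. Of the COPII GTPases and coat subunits, 9 of 10 were higher and none was lower, with a median log2 fold change of 0.44. Of the cargo receptors and the tether, 7 of 8 were higher, with a median of 0.48. The Sec61 channel and its partners were higher in 5 of 5, with a median of 0.34. The COPI coatomer split into 6 higher, 1 lower and 2 that did not pass, with a median of 0.20. The exit site organisers had 2 genes in each direction, the ARF GTPases had 1 of 2 higher, and the TRAP complex had 2 of 4 higher. Of the 3 noncatalytic signal peptidase subunits, 2 were lower and none was higher. Over all genes tested, 37.6% were higher and 38.0% lower. Counts from so few genes do not set the exit site organisers, ARF GTPases, TRAP complex or signal peptidase subunits apart.

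**Figure D2:**
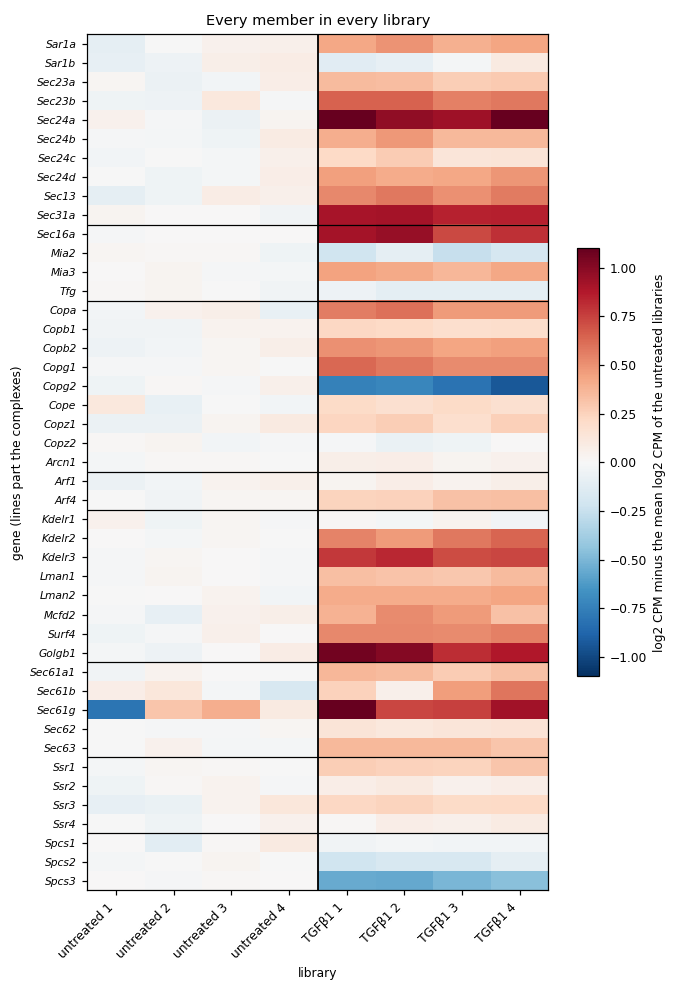
Log2 CPM of each member (rows, grouped by complex) in each of the 8 libraries (columns), minus the mean of the untreated libraries of that gene. Red is higher and blue lower, and the treated columns are red for most genes, blue for Copg2 and Spcs3 and pale for Kdelr1 and Arf1.

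Sec24a, which encodes a cargo-binding subunit of the inner COPII coat, had the largest fold change of the members. The gene lies at chr11:51692264-51763634, minus strand (GRCm38, GENCODE M21, as for all gene positions). It lay at 43.0, 41.2, 39.9 and 42.6 CPM in untreated libraries 1 to 4 and at 89.2, 82.1, 79.5 and 92.0 CPM in treated libraries 1 to 4. The lowest treated library was far above the highest untreated one, and the gene rose by a log2 fold change of 1.04 ± 0.06 (SE, FDR 3.22e-69, likelihood ratio test). Sec31a, which with Sec13 builds the outer cage of the coat (chr5:100361649-100416234, minus strand), was read at 334, 327, 327 and 317 CPM without and 611, 615, 585 and 592 CPM with TGFβ1. Its groups were also far apart, with a log2 fold change of 0.88 ± 0.04 (SE, FDR 6.3e-116, likelihood ratio test), and Sec13 itself rose from 149 ± 8.77 to 217 ± 5.34 CPM (SD, n = 4). The log2 fold change of Sec13 was 0.55 ± 0.05 (SE).

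Of the other inner coat genes, Sec23b rose more than its paralog Sec23a. Sec23 is the subunit that activates GTP hydrolysis by Sar1. Sec23b went from 73.0, 72.6, 82.0 and 75.0 CPM to 119, 119, 111 and 113 CPM, a log2 fold change of 0.61 ± 0.05 (SE), and Sec23a from 157 ± 6.40 to 195 ± 5.09 CPM (SD, n = 4), or 0.31 ± 0.04. The remaining cargo adaptors, Sec24b, Sec24c and Sec24d, rose by 0.40, 0.19 and 0.44 on the log2 scale, so that all 4 Sec24 genes were higher, with fold changes between 1.14 for Sec24c and 2.06 for Sec24a.

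The Sar1 GTPases diverged. Sar1a was at 248, 264, 274 and 275 CPM in untreated and 357, 374, 347 and 359 CPM in treated libraries, which did not overlap, with a log2 fold change of 0.44 ± 0.04 (SE, FDR 8.49e-22, likelihood ratio test). Sar1b, the form mutated in chylomicron retention disease, was at 52.2, 53.6, 58.3 and 58.8 CPM and at 50.9, 52.2, 55.0 and 59.5 CPM. The Sar1b groups overlapped, and the 95% interval of its log2 fold change ran from -0.16 to 0.09.

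At the ER exit sites the 4 organisers did not move together. Sec16a, the scaffold on which COPII assembles (chr2:26409431-26445216, minus strand), was at 83.9, 84.7, 84.6 and 84.7 CPM in untreated and 159, 164, 140 and 148 CPM in treated libraries. Its untreated libraries were nearly identical, and the rise of 0.85 ± 0.05 on the log2 scale (SE, FDR 2.67e-56, likelihood ratio test) exceeded the wider spread of the treated ones. Mia3 encodes TANGO1, which recruits coat and membrane to export procollagen, and it rose from 165, 168, 163 and 162 CPM to 223, 219, 212 and 220 CPM, a log2 fold change of 0.41 ± 0.04.

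Mia2, whose product cTAGE5 partners TANGO1, went the other way. It was at 71.4, 70.6, 70.9 and 67.7 CPM without and 60.3, 65.6, 58.9 and 61.8 CPM with TGFβ1, so that each treated library was below each untreated one, and it fell by 0.19 on the log2 scale (SE 0.05, FDR 0.000268, likelihood ratio test). Tfg, a scaffold that clusters COPII carriers, was at 145, 147, 143 and 140 CPM and at 138, 133, 133 and 133 CPM, again without overlap but with a small distance. It fell by 0.10 (SE 0.04, FDR 0.0201, likelihood ratio test). This call was lost when untreated library 2 (FDR 0.0625), treated library 3 (FDR 0.0557) or treated library 4 (FDR 0.0554) was left out.

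**Figure D3:**
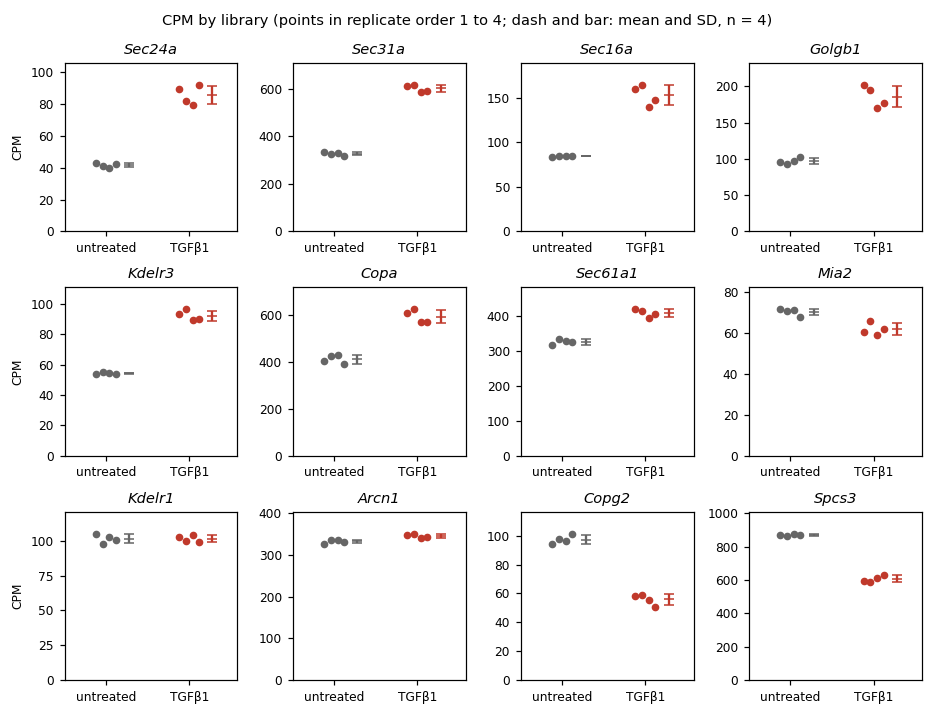
CPM of 12 members in each library (points, in replicate order 1 to 4 within a group), with the mean and SD of each group (dash and bar, n = 4) and vertical axes that start at 0. Sec24a, Sec31a, Sec16a, Golgb1, Kdelr3, Copa and Sec61a1 are higher in all treated libraries, Mia2, Copg2 and Spcs3 are lower in all of them, and Kdelr1 and Arcn1 differ little. The 12 were chosen to span the complexes and directions after their values were seen.

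In the COPI coatomer, Copg1 rose and its paralog Copg2 fell. Both encode γ-COP, an adaptor subunit of the coat. Copg1 was at 285, 285, 292 and 287 CPM in untreated and 444, 429, 413 and 411 CPM in treated libraries, with a log2 fold change of 0.56 ± 0.04 (SE, FDR 2.51e-44, likelihood ratio test). Copg2 was at 93.9, 97.9, 96.2 and 101 CPM and at 58.0, 59.0, 55.3 and 50.9 CPM, and it fell by 0.80 on the log2 scale (SE 0.05, FDR 1.05e-48, likelihood ratio test). Neither gene's groups overlapped.

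Copg2 (chr6:30747554-30896794, minus strand) overlaps Mest on the opposite strand, and 15.6% of its 75-base stretches also occur there. Mest had 186 to 295 counts in untreated and 43 to 48 in treated libraries, against at least 1073 counts of Copg2 in every library. Use of strand in the counting was not given in the sources used here, so reads of the shared stretch cannot be assigned with certainty.

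The α-COP and β′-COP genes, whose products form the outer layer of the coatomer, rose together. Copa was at 403, 425, 429 and 390 CPM without and 608, 624, 571 and 569 CPM with TGFβ1, a log2 fold change of 0.53 ± 0.05 (SE), and Copb2 went from 284 ± 10.2 to 393 ± 8.64 CPM (SD, n = 4), or 0.47 ± 0.04. The other outer-layer gene, Cope, which encodes ε-COP, rose less, by 0.19 ± 0.05, as did the inner-layer genes Copb1, for β-COP, by 0.20 ± 0.04, and Copz1, for ζ-COP, by 0.24 ± 0.05. Among the coat genes that rose, the fold changes of Copa, Copb2 and Copg1 were the larger ones.

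For the last 2 coatomer genes no change was called. Arcn1, which encodes δ-COP, was at 327, 336, 335 and 331 CPM and at 348, 350, 339 and 342 CPM. All treated libraries were above the untreated ones, but the log2 fold change was 0.05 with a 95% interval from -0.02 to 0.12 (FDR 0.158, likelihood ratio test), and it became -0.01 when libraries were scaled by total counts. Copz2, the second ζ-COP gene, overlapped between groups at 34.6 ± 0.60 and 33.9 ± 0.84 CPM (SD, n = 4).

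Arf4 and Arf1, the GTPases that recruit coatomer and other coats, differed. Arf4 was at 468, 459, 478 and 477 CPM and at 558, 562, 588 and 590 CPM, a rise of 0.29 ± 0.04 on the log2 scale (SE, FDR 2.2e-13, likelihood ratio test). Arf1 overlapped between groups, at 434 ± 16.9 and 449 ± 6.37 CPM (SD, n = 4), with a log2 fold change of 0.05 that became -0.02 with scaling by total counts. For Arf4, 10.2% of the 75-base stretches are shared with Pde12 on the opposite strand, which had a log2 fold change of -0.07.

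The largest change among the cargo receptors and the tether was that of Golgb1, which encodes giantin, a long coiled-coil tether of Golgi membranes (chr16:36875140-36933085, plus strand). It was at 95.2, 93.0, 96.7 and 102 CPM in untreated and 202, 194, 170 and 178 CPM in treated libraries. The groups were well apart, although treated libraries 1 and 2 were above 3 and 4, and the log2 fold change was 0.94 ± 0.06 (SE, FDR 1.29e-58, likelihood ratio test). The same-strand gene Gm49599, which overlaps Golgb1, had at most 42 counts in any library.

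The KDEL receptors return ER chaperones that have escaped to the Golgi, and only Kdelr2 and Kdelr3 of the 3 genes were called. Kdelr3 (chr15:79516411-79527739, plus strand) rose from 53.7, 55.0, 54.2 and 53.8 CPM to 93.1, 96.3, 89.3 and 90.0 CPM, a log2 fold change of 0.77 ± 0.05 (SE, FDR 1.77e-60, likelihood ratio test). Kdelr2 rose from 242, 238, 245 and 241 CPM to 352, 334, 361 and 376 CPM, or 0.56 ± 0.04. Kdelr1 was at 105, 97.9, 103 and 100 CPM and at 103, 99.8, 104 and 99.1 CPM, and these overlapping groups gave a 95% interval from -0.09 to 0.08 for its log2 fold change, whose sign depended on the scaling and on which library was left out.

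The export receptors rose as well. Surf4, a receptor for many soluble secreted proteins, was at 352, 362, 378 and 366 CPM without and 525, 524, 523 and 534 CPM with TGFβ1, a log2 fold change of 0.53 ± 0.04 (SE, FDR 9.82e-44, likelihood ratio test). Lman1, a lectin that exports glycoproteins such as coagulation factors, went from 337 ± 4.57 to 421 ± 6.14 CPM (SD, n = 4), and Mcfd2, its calcium-binding partner, from 67.0 ± 3.09 to 90.0 ± 5.55 CPM. Lman2, a related lectin, rose by 0.41 ± 0.04 on the log2 scale. For none of these 4 genes did the groups overlap.

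Apart from Sec61g, the genes of the Sec61 channel and its partners rose by 0.14 to 0.35 on the log2 scale. Sec61a1, the pore-forming subunit, was at 317, 334, 328 and 326 CPM in untreated and 420, 415, 396 and 407 CPM in treated libraries, a log2 fold change of 0.33 ± 0.04 (SE, FDR 7.55e-17, likelihood ratio test). Sec63, a co-chaperone that brings BiP to the channel, rose by a like amount of 0.34 ± 0.04, and Sec62, its partner in post-translational entry, by 0.14 ± 0.04. The Sec62 call was lost with scaling by total counts (FDR 0.082).

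The 2 small subunits of the channel were measured less precisely. Sec61b was at 26.4, 27.3, 24.7 and 22.3 CPM and at 29.9, 26.1, 34.4 and 37.8 CPM, so the groups overlapped although the log2 fold change of 0.35 ± 0.10 passed (SE, FDR 0.00105, likelihood ratio test). Sec61g had between 9 and 40 counts per library, or 0.43, 0.94, 1.00 and 0.81 CPM and 2.16, 1.27, 1.28 and 1.44 CPM. Its log2 fold change of 0.91 had a standard error of 0.26 and a 95% interval from 0.41 to 1.41, far wider than for the abundant members. Sequence shared with Gm10177 made up 13.7% of the 75-base stretches of Sec61g. For Sec61b, Gm10320 shared 8.32% of the stretches, and all other genes together, Gm10320 included, shared 10.1%. Reads could therefore have been lost or split between these genes.

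In the TRAP complex, Ssr1 rose from 308, 318, 315 and 312 CPM to 377, 374, 372 and 386 CPM, a log2 fold change of 0.27 ± 0.04 (SE, FDR 3.35e-13, likelihood ratio test). Ssr3, the subunit with the highest CPM per kb of the 4, rose by 0.23 ± 0.05. Ssr2 lay slightly higher in all treated libraries, at 143 ± 3.53 against 151 ± 2.45 CPM (SD, n = 4), with an FDR of 0.0865 in edgeR's likelihood ratio test and 0.0486 in DESeq2. Ssr4 overlapped between groups, with a log2 fold change of 0.06 that became -0.01 with scaling by total counts.

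Spcs3 fell, in contrast to the channel. It encodes an accessory subunit of signal peptidase (chr8:54520433-54529998, minus strand), and it was at 871, 860, 876 and 870 CPM in untreated and 592, 589, 614 and 632 CPM in treated libraries. The groups were far apart, and it fell by 0.52 on the log2 scale (SE 0.04, FDR 5.31e-41, likelihood ratio test). Spcs2 fell by 0.17 (SE 0.04) from 102 ± 1.54 to 90.9 ± 3.21 CPM (SD, n = 4), and Spcs1 overlapped between groups at 116 ± 6.96 and 114 ± 0.63 CPM.

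The balance between paralogs shifted within the families. The log2 ratio of the counts of 2 paralogs in the same library does not depend on the scaling between libraries, and 12 pairs were compared. For all 12, the 4 treated ratios lay outside the range of the 4 untreated ones, and the exact two-sided permutation test gave p = 0.0286 for each, the smallest value that 4 against 4 libraries allow (0.0286 after Benjamini-Hochberg adjustment over the 12 pairs). With every p-value at this floor, the adjustment could not change it, and some pairs share a gene, so the pairs are not independent. Non-overlapping groups were seen for 69.8% of single genes, and the share for ratios of other gene pairs was not determined. The sizes therefore carry more than the calls. The Copg1 to Copg2 ratio moved most, from 1.56 ± 0.05 (SD, n = 4) to 2.94, 2.86, 2.90 and 3.01 in the treated libraries, a difference of 1.36 in log2 units.

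The next largest shifts were toward Sec24a and away from Mia2. Sec24a gained 0.64 over Sec24b, and Mia2 lost ground to Mia3 with a difference of -0.60. Kdelr1 against Kdelr2 changed by -0.56 and Sar1a against Sar1b by 0.47. The smallest was Lman1 against Lman2 at -0.09, from a mean log2 ratio of 0.97 ± 0.03 to 0.88 ± 0.01 (SD, n = 4).

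**Figure D4:**
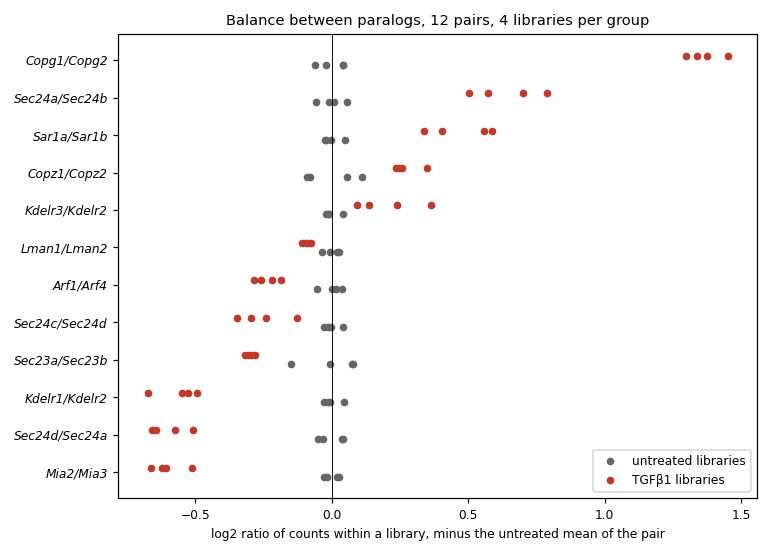
Log2 ratio of the counts of 2 paralogs within each library, minus the untreated mean of the pair (horizontal axis), for 12 pairs (vertical axis), with 4 untreated (grey) and 4 treated (red) libraries each. The treated points lie outside the untreated range for every pair, farthest for Copg1/Copg2 with a difference of 1.36 and least for Lman1/Lman2 with -0.09.

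Per kb of annotated exons, the family totals rose too. The 3 KDEL receptor genes together went from 224 ± 2.75 to 314 ± 7.61 CPM per kb, the 4 Sec24 genes from 66.9 ± 2.17 to 87.5 ± 1.95, and the 2 Sec23 genes from 44.5 ± 1.39 to 58.6 ± 1.69 (SD, n = 4). The γ-COP total changed less, from 45.1 ± 0.65 to 49.4 ± 2.00 CPM per kb, with Copg2 lower and Copg1 higher. Copg1 made up 57.9% ± 0.85 of the γ-COP total in untreated and 78.0% ± 0.77 in treated libraries. These are descriptions of levels per length, with no test.

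Sec24a remained the least abundant Sec24 gene per length, although its share went from 5.83% ± 0.18 to 9.18% ± 0.59. Kdelr1 dropped from 24.1% ± 0.47 to 17.3% ± 0.56 of the KDEL receptor total, and Sar1a went from 61.5% ± 0.55 to 68.9% ± 1.77 of the Sar1 total (SD, n = 4). Across all members, untreated levels ranged from 0.32 CPM per kb for Sec61g, where shared sequence could have cost reads, to 251 for Spcs3. Arf1 followed at 208 ± 8.09 CPM per kb, then Ssr3 at 136 ± 9.45 and Kdelr2 at 132 ± 1.66, and the last 2 do not differ beyond their spread. After TGFβ1, Arf1 at 215 ± 3.05 was above Kdelr2 at 194 ± 9.68 and Spcs3 at 175 ± 5.77 CPM per kb. Shares and order depend on the length that is assumed for each gene. With the longest transcript in place of all exons, Arf4 at 217 was level with Arf1 at 218 CPM per kb in untreated libraries, and after TGFβ1 Arf4 at 265 came before Arf1 at 225.5 and Ssr3 at 224.

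The treated libraries differed among themselves. For 19 members (42.2%), Sec16a, Golgb1 and Sec31a among them, treated libraries 1 and 2 were both above 3 and 4, and for 6 members (13.3%), Sec61b among them, both were below. Over all genes tested, these shares were 24.4% and 21.3%. Members with longer transcripts tended to have the larger difference between these libraries, with Spearman's rho of 0.39 across the 45 genes, against 0.18 across 13814 genes tested. The log2 fold change itself had a rho of 0.27 with transcript length in the members and 0.08 across all genes. These are descriptions across genes of the same 8 libraries, and the part of transcript length in the fold changes was not tested. The counts of members called higher stayed at 32 whichever library was left out.

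The promoters of several members share short sequence elements. Promoter windows of RefSeq (GRCm38.p6), each from 250 bases before to 50 bases after an annotated start, matched 38 members by symbol. They were searched on both strands for elements of the unfolded protein response and of SMAD factors. ACGTGG and TGACGTG belong to elements bound by bZIP factors such as ATF6, XBP1 and the CREB3 family. TGACGTG followed by G also holds ACGTGG. The upstream 120 bases of 8 members are shown 5′ to 3′ on the strand of the gene, with each match to ACGTGG or TGACGTG, or to its reverse complement, in capitals. They were chosen after the search to show the forms of the match (Sec24d, Mia3, Copb1, Kdelr3, Sec63 and Ssr1, all of which rose), a match in a gene that was not called (Spcs1) and the member that fell most, without a match (Copg2).
Sec24d: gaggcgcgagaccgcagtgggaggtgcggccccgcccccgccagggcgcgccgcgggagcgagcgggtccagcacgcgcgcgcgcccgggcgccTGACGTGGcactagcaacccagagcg
Mia3: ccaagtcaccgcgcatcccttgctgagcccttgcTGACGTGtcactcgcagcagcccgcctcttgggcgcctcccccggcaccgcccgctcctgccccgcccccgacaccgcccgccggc
Copb1: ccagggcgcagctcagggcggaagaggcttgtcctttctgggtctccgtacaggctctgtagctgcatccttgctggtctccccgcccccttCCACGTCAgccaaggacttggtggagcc
Kdelr3: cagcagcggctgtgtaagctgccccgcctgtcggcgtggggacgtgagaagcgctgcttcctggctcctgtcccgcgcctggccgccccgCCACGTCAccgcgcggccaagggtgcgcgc
Sec63: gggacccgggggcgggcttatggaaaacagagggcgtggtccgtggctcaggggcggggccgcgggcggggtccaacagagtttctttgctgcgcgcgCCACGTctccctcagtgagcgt
Ssr1: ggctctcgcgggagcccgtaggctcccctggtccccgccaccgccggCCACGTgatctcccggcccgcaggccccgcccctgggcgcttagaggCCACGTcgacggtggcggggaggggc
Spcs1: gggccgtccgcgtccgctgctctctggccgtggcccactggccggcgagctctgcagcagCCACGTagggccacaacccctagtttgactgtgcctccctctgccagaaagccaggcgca
Copg2: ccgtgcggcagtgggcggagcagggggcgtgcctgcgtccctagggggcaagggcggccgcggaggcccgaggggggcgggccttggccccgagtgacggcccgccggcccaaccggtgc
They lie at chr3:123267376-123267495 (plus strand), chr1:183369566-183369685 (minus), chr7:114254681-114254800 (minus), chr15:79516288-79516407 (plus), chr10:42761376-42761495 (plus), chr13:37994209-37994328 (minus), chr14:31001667-31001786 (minus) and chr6:30896795-30896914 (minus). Each ends at the base before the RefSeq start, and the GENCODE M21 gene start differs from it for 6 of the 8. For Sec24d and Copb1 the RefSeq start lies 41 and 31 bases downstream of the GENCODE start, so that the marked matches of these 2 genes are inside the GENCODE gene and not upstream of it.

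In the printed stretches, Sec24d has TGACGTG followed by G in the forward direction, its first base 26 bases before the start. Copb1 and Kdelr3 have the same letters in reverse, beginning 28 and 30 bases before their starts. Mia3 has TGACGTG without the final G, 86 bases before its start, and Ssr1 has ACGTGG in reverse at 73 and at 26 bases before. Spcs1 has it 60 bases before its start, and its groups overlapped.

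Over the 38 members with a window, ACGTGG was found in 21, or 55.3%, against 9.4% of all 27025 genes with windows and 13.3% of the 10199 of them that were tested. It was present in 17 of 28 members that were called higher and in 4 of the 10 others. TGACGTG was found in 7 members, or 18.4%, against 2.22% of all genes and 3.32% of those tested. The shorter CCACG, which is contained in the reverse complement of ACGTGG, was in 26 of 38 members against 52.4% of tested genes, and CCAAT was in 13 against 43.4%. Neither the full ER stress element (CCAAT and CCACG parted by 9 bases), found in 0.147% of tested genes, nor the SMAD palindrome GTCTAGAC, in 0.324%, was present in any member window. At such low rates a match among 38 members was unlikely in any case, so the absence says little. These counts describe the letters in the windows only and were made after the expression values were known. For 8 of the 38 members no window lay within 100 bases of the gene's start in GENCODE M21, Sec24a among them, and of the other 30 members 17 held ACGTGG and 7 held TGACGTG in a window that did.

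Neighbouring steps of the pathway changed in both directions. In 7 further lists with 66 genes, 65 were tested, and 37 were higher, 17 lower and 11 not called, against 37.6% higher and 38.0% lower over all genes. Their median log2 fold change of 0.22 was below the 0.32 of the members. Srp54a was too low to be tested.

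Among factors that regulate these genes or act beside them at ER exit, Creb3l2 and Creb3l1, membrane-bound transcription factors of the CREB3 family, rose. Creb3l2 was at 174 to 186 CPM in untreated and 350 to 367 CPM in treated libraries, a log2 fold change of 0.99 ± 0.04 (SE, FDR 2.25e-122, likelihood ratio test), and Creb3l1 rose by 0.61 ± 0.07. Atf6, the ER stress sensor, was at 197 to 220 and at 143 to 152 CPM and fell by 0.51 (SE 0.05). Xbp1, the ER stress factor named above with its element, rose from 79.1 ± 3.95 to 103 ± 3.98 CPM (SD, n = 4), a log2 fold change of 0.38 ± 0.05. Klhl12, an adaptor for the ubiquitination of Sec31, fell by 0.49, and both were named after their values were seen. Of this list of 9 genes, 4 were higher and 2 lower.

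The signal recognition particle, which brings ribosomes to the channel, and its receptor together had 3 of 7 tested genes higher and 1 lower. Srp72 was at 289 to 311 CPM in untreated and 505 to 577 CPM in treated libraries (log2 fold change 0.82 ± 0.05), the receptor subunit Srpr rose by 0.42, and Srp68 fell by 0.24. The other signal peptidase and translocon genes divided evenly, with 2 of 5 higher and 2 lower. Sec11c, a catalytic subunit of signal peptidase, rose by 0.50 ± 0.06 from 20.3 CPM in untreated libraries. Sec11a, the other catalytic subunit, named after its values were seen, was at 68.1 ± 2.76 and 61.9 ± 1.88 CPM (SD, n = 4) and fell by 0.14 (SE 0.05, FDR 0.00748, likelihood ratio test). Sec61a2 rose by 0.22 and Tram2 fell by 0.25.

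Of the oligosaccharyltransferase genes, whose products glycosylate proteins as they enter the ER, 9 of 12 were higher and 2 lower, with a median log2 fold change of 0.28. Magt1 rose by 0.77 ± 0.05 and Ost4 by 0.55 ± 0.06, while Krtcap2 fell by 0.52 (SE 0.06). The p24 family of cargo receptors, which cycles in COPI and COPII vesicles, had 4 of 8 higher and 3 lower, with Tmed9, Tmed5 and Tmed3 rising by 0.61, 0.60 and 0.56 on the log2 scale.

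ARF regulators and relatives were higher in 6 of 9 and lower in 2, with the list's median at 0.40. Arfgef2, an exchange factor for ARFs, rose by 0.78 ± 0.05, and Gbf1, the exchange factor of the early Golgi, by 0.46 ± 0.05, while the GTPase Arf5 was at 113 to 145 CPM in untreated and 68.5 to 91.0 CPM in treated libraries and fell by 0.67 (SE 0.09). The SNAREs, tethers and RAB GTPases between ER and Golgi had 9 of 15 higher and 5 lower. Ykt6 and Gorasp1 rose by 0.39 each, and the SNARE Use1 fell by 0.59 (SE 0.05).

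**Figure D5:**
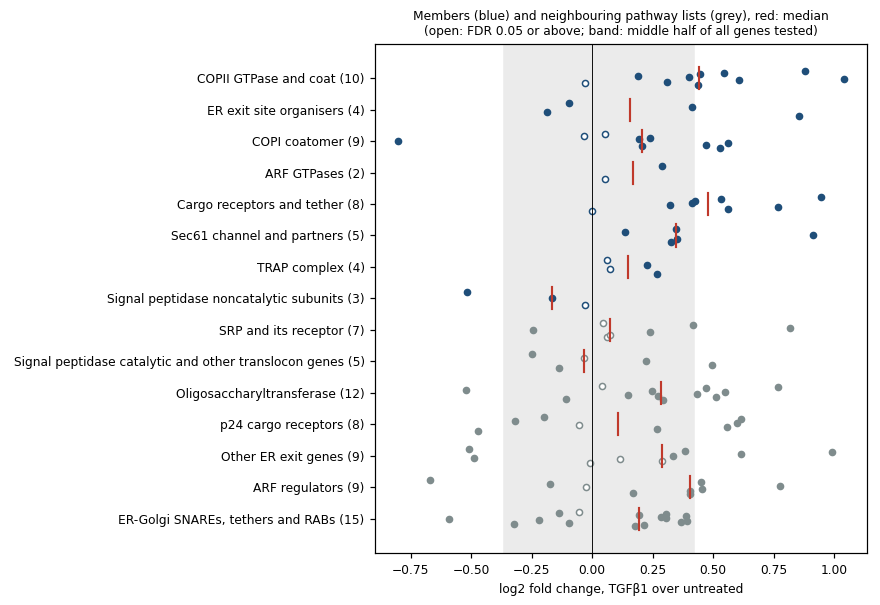
Log2 fold change after TGFβ1 of the members (blue) and of the tested genes of 7 neighbouring lists (grey), with the number of genes in parentheses and the median of each list as a red line. Open circles did not pass an FDR under 0.05, and the band spans the interquartile range of all genes tested. The medians run from -0.17 for the noncatalytic signal peptidase subunits to 0.48 for the cargo receptors and tether.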

How the data were processed

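Poly(A) RNA of untreated and TGFβ1-treated SV-LECs was read from 1 end, 75 bases long, after stranded library preparation. Per the submitters' processing notes, the authors used bcl2fastq 2.20.0.422, STAR 2.7.3a and featureCounts 1.5.1 with GRCm38. The annotation release and use of strand were not given in the sources used here. The authors deposited raw counts per gene, not normalized.

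The comparison was run with edgeR 4.0.16 (R 4.3.3), using filterByExpr, TMM, glmFit and glmLRT, as the study's methods name edgeR's likelihood ratio test. FDRs are Benjamini-Hochberg values over the 13818 genes tested. Standard errors come from the model's information matrix, and log2 fold changes carry a prior count of 0.125. CPM per kb used the union of exons in GENCODE M21, which matched 55230 genes, and shared sequence was counted in stretches of 75 bases. Floors and intervals cover counting or technical error only. The quasi-likelihood test, DESeq2 1.42.0, other scalings, filters, prior count, threshold, a replicate block, leaving out each library, a pseudocount and another length were tried. The procedure was also run on simulated data in which a small part of the genes changed, with directions drawn at random. In the real data 75.6% of genes were called, so that run does not show how the scaling behaves here.

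No library duplicated another of its group (chi-square per degree of freedom 2.37 to 7.84). Every member was open to naming, and of each neighbouring list the 3 called genes with the largest absolute log2 fold change. The members and lists were chosen with earlier results of these data known.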

Additional observations from a re-analysis of the deposited data

Results flagged for a closer look

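In 4 of 114 groups of 4 libraries, 1 library stood apart from the other 3 by Dixon's criterion, where chance flags about 1 in 20 groups. All 4 were treated groups with a narrow range. Tfg was at 138.0 CPM in treated library 1 and at 132.9 to 133.2 CPM in the others, Lman2 at 231.4 CPM in treated library 4 against 227.4 to 227.9 CPM, Surf4 at 534.3 CPM in treated library 4 against 523.4 to 524.6 CPM, and Sec63 at 292.4 CPM in treated library 4 against 301.7 to 302.9 CPM.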

How the results depend on the processing

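Over the alternatives run, 31 to 33 members were higher and 4 or 5 lower, and 36 or 37 of the 37 called members kept their call. Scaling by total counts moved the median of all genes from -0.01 to -0.07 and lowered the share of calls that were higher from 49.7% to 44.0%. The median log2 fold change became 0.25 for the members and 0.15 for the neighbouring genes, and Arcn1, Arf1 and Ssr4 changed sign to -0.0132, -0.0171 and -0.0061, none of them called in either scaling. Kdelr1 was at 0.0063 with DESeq2, 0.0063 with its size factors, 0.0122 with a filter of 1 CPM and between -0.0217 and 0.01 when a library was left out, and Spcs1 lay between -0.0710 and 0.0001. The exit site organisers had 1 lower gene in place of 2 at an FDR under 0.01 and between 1 and 2 with a library left out.

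Replicate numbers did not pair the libraries. Each gene's deviations from its group mean were correlated across genes between untreated and treated libraries. Same-numbered libraries had correlations of -0.103, -0.059, -0.034 and -0.193, and the others ran from -0.227 to 0.25. With the replicate number as a block, 32 members were higher and 4 lower, because Tfg lost its call (FDR 0.0584, likelihood ratio test) and the exit site organisers had 1 lower gene, and 36 of the 37 calls were kept. The paralog differences were the same by construction, for example 1.3648 for Copg1 to Copg2.

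With the longest transcript in place of all exons, the shares in untreated and treated libraries were 68.7% and 75.2% for Sar1a, 61.2% and 56.2% for Sec23a, 6.60% and 10.3% for Sec24a, 68.6% and 84.9% for Copg1, 51.0% and 55.7% for Copz1, and 27.2% and 19.6% for Kdelr1, each moving the same way after TGFβ1 as with the union of exons. These directions could not have differed, because another length only rescales each gene by a constant. Sec61g is limited by its 9 to 40 counts and by the sequence it shares with Gm10177. Technical replicates of a single line do not show how independent cultures vary.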
